A study of Mus musculus with 36 samples.

Results

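The mitochondrial ribosomal protein genes examined here are the genes named Mrpl or Mrps with a number, and a letter where there is one, and 76 of the 16415 genes in the table carried such a name, 47 Mrpl and 29 Mrps genes. They were followed in RNA of mouse left ventricle after myocardial infarction (MI) and after sham surgery. In MI mice the left anterior descending coronary artery was tied off, and sham mice had the same operation without occlusion. All were C57BL/6 males that were 8 weeks old at surgery. Hearts were taken after 1 day (early stage), 1 week (middle) or 8 weeks (late), and each of the 6 groups had 3 libraries, 18 in all. The labels describe pooled left ventricles without giving the number of animals in a library, so every p-value here measures the spread between libraries, which may be smaller than that between single animals. Levels are FPKM, fragment numbers scaled by transcript length and by the depth of the library. The number of reads behind a value is unknown.

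Mitochondria build a part of the respiratory chain from their own small genome, and the ribosomes that read it are made of ribosomal RNA from that genome and of proteins that are encoded in the nucleus, made in the cytosol and imported. The names Mrpl and Mrps mark proteins assigned to the large and the small subunit. Some descend from bacterial ribosomal proteins and others exist only in mitochondrial ribosomes. Heart muscle is among the tissues richest in mitochondria, and inherited defects of several of these proteins cause cardiomyopathy in humans.

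In FPKM, levels of most of the 76 genes were lower after MI at the early and middle stages and closer to sham at the late stage. Relative to the median tested gene of each library, the late median change (-0.90) was near the early one (-0.94), as described below. At 1 day, 68 genes were lower and 3 were higher in MI than in sham hearts (limma on log2(FPKM + 1), Benjamini-Hochberg adjusted p below 0.05 over 12858 tested genes), where 30.6% of all tested genes were lower and 39.7% were higher. At 1 week, 67 were lower and 3 higher, against 16.5% and 72.8% of all tested genes. At 8 weeks, 39 were lower and 12 higher, against 10.6% and 70.4%. All 76 genes passed the filter on low values, an FPKM of at least 1 in 3 or more libraries. The median member stood at 60.1% of its sham level at 1 day, 56.4% at 1 week and 83.3% at 8 weeks. In log2 terms the median change was -0.66, -0.74 and -0.26, while the median over all tested genes was 0.09, 0.79 and 0.52. Without the third MI library of 8 weeks the late stage had 31 lower genes, and without the first it had 48, with medians of -0.16 and -0.36. In whole-ventricle RNA fewer cells of a type and less RNA per cell cannot be told apart, and cardiomyocyte markers were lower in MI libraries as well.

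**Figure D1:**
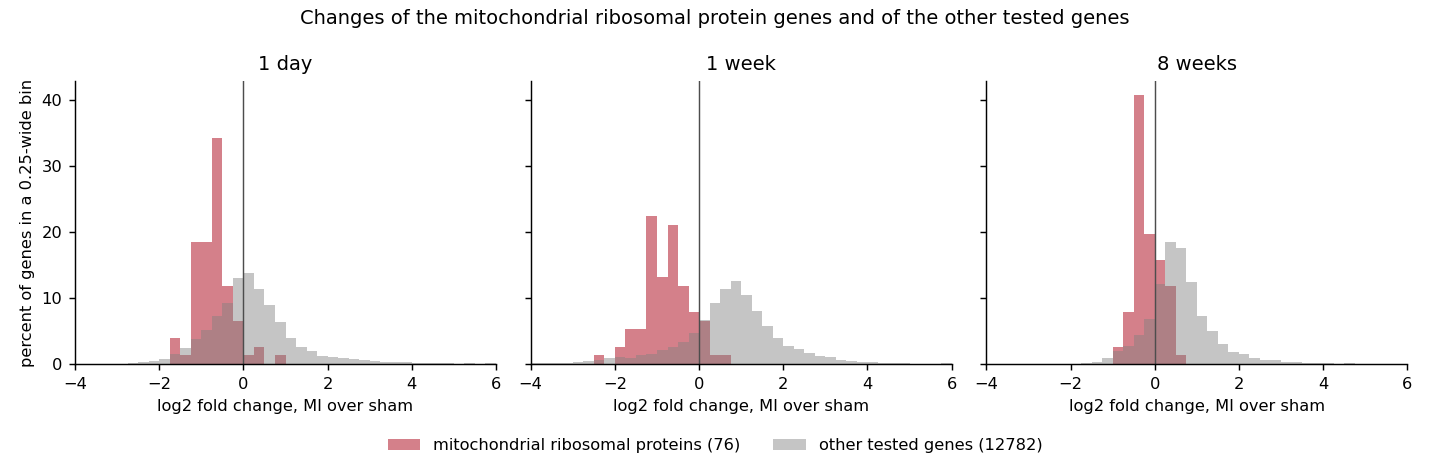
Share of genes in each bin of the log2 fold change, MI over sham, for the 76 mitochondrial ribosomal protein genes (red) and the other tested genes (grey) at the 3 stages; the vertical line marks no change and values beyond the axis are drawn in the end bins. The red bars lie mostly left of 0 at 1 day and 1 week and nearer to 0 at 8 weeks, where the grey bars lie mostly right of 0.

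These counts depend on the scale, since FPKM of most genes was higher in MI libraries. On the log2 scale the median tested gene of a library lay 0.28 higher in MI than in sham libraries at 1 day, 0.85 higher at 1 week and 0.64 higher at 8 weeks. Relative to that median, 71 of the 76 genes were lower and 1 was higher at 1 day, against 47.5% and 31.2% of all tested genes. At 1 week 75 were lower, against 43.6%, and at 8 weeks 72 were lower, against 43.0%. On this scale limma placed 0 genes higher at both later stages, also at an unadjusted p below 0.05, against 37.0% and 27.8% of all tested genes. The median relative change of the 76 genes was -0.94 at 1 day, -1.59 at 1 week and -0.90 at 8 weeks. A higher or lower level below refers to the deposited FPKM unless the library median is named.

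Replicates were close to each other at the first 2 stages. MI and sham libraries did not overlap for 70 lower and 3 higher genes at 1 day (35.9% and 45.4% of all tested genes), for 68 lower and 4 higher genes at 1 week (17.4% and 74.8%) and for 39 lower and 11 higher genes at 8 weeks (10.9% and 66.3%). The median coefficient of variation over the 76 genes was 5.78% in MI and 5.95% in sham libraries at 1 day. It was 6.70% in MI and 6.67% in sham libraries at 1 week. Late MI libraries were the least alike, with 12.6% against 4.48% in late sham libraries. Limma shared 1 spread per gene over all 6 groups, so its standard errors and p-values at 8 weeks may be too small. With 3 libraries against 3, an exact permutation test of a single gene cannot give a two-sided p under 0.10. Between the stages, sham libraries differed little. Limma found 0 of the 76 genes changed in sham from 1 day to 1 week and 0 from 1 week to 8 weeks, with 0 and 2 genes at an unadjusted p below 0.05 (Mrpl36 and Mrpl52, lower at 8 weeks). Of all tested genes 1.42% and 0.848% were called, and 11.1% and 9.77% had an unadjusted p below 0.05. The sham-to-sham changes of the 76 genes ran from -0.18 to 0.20 between the first 2 stages and from -0.23 to 0.11 between the last 2.

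**Figure D2:**
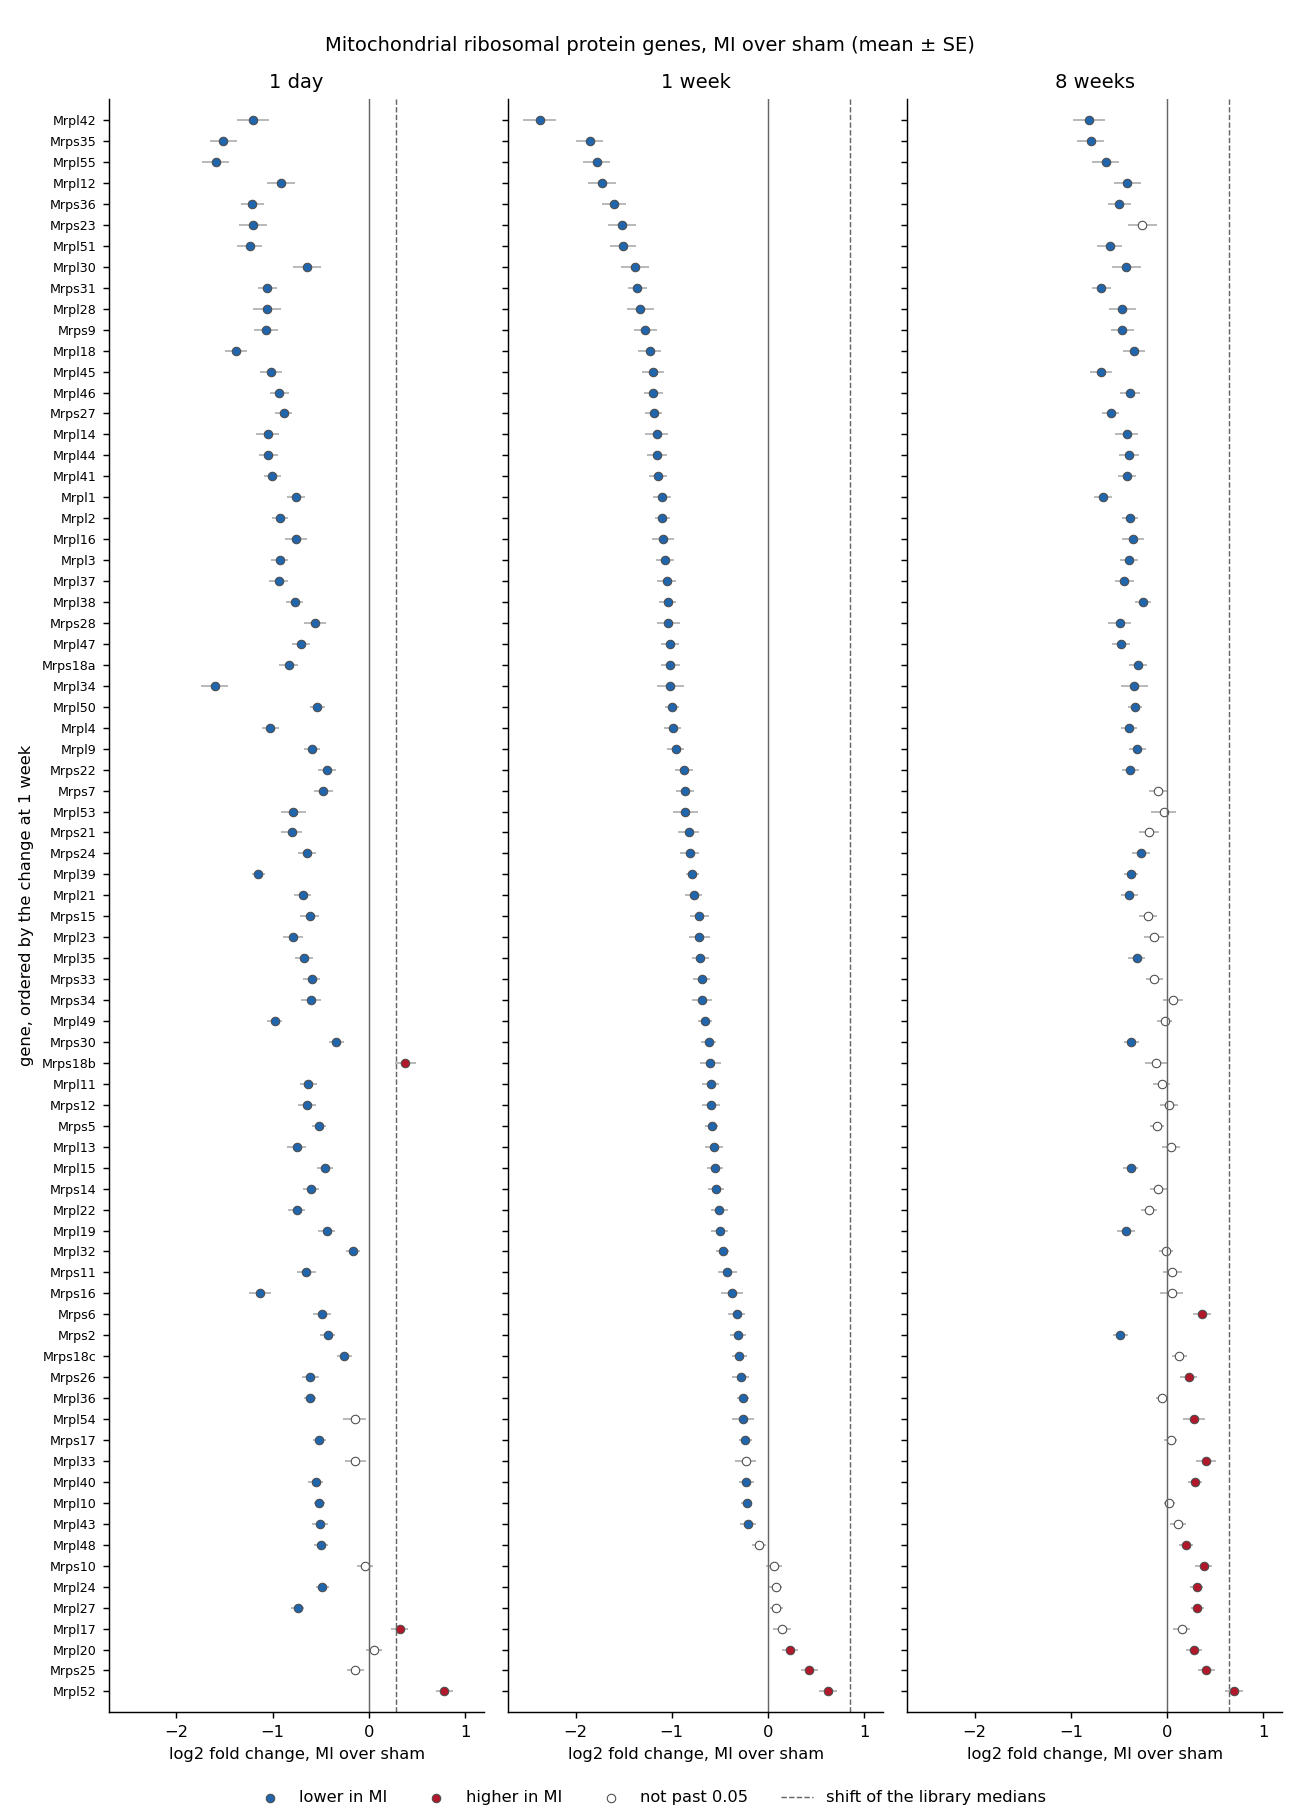
Log2 fold change, MI over sham, of each of the 76 genes at the 3 stages, with its standard error; filled points passed an adjusted p of 0.05 (blue lower, red higher in MI), open points did not, and the dashed line marks the shift of the library medians. Nearly all points lie left of 0 at the first 2 stages, Mrpl42 lies farthest left at 1 week, and Mrpl52 lies right of 0 at each stage but left of the dashed line at 1 week.

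In sham hearts the 76 genes covered a wide range of levels. Mrpl42, a mitochondria-specific protein of the large subunit, averaged 294 FPKM over the 9 sham libraries. It was followed by Mrpl30 at 147, Mrps21 at 144, Mrpl12 at 126 and Mrpl33 at 122 FPKM. The lowest were Mrpl17 at 3.77, Mrpl19 at 3.998 and Mrps25 at 5.87 FPKM, and the median member stood at 28.7 FPKM against 4.29 FPKM for the median tested gene. Summed over the 76 genes, they took 0.546 to 0.596% of all FPKM in MI against 0.911 to 0.978% in sham libraries at 1 day. The share was 0.394 to 0.444% against 0.923 to 0.970% at 1 week, and 0.540 to 0.788% against 0.919 to 0.940% at 8 weeks. The MI and sham libraries did not overlap in this share at any stage.

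By log2 fold change, the gene with the highest sham level had the largest fall at 1 week and at 8 weeks. The late fall was barely larger than that of Mrps35 (-0.79). Mrpl42 measured 127, 109.8 and 129.7 FPKM in MI against 294, 271 and 282 FPKM in sham libraries at 1 day, and 50.7, 56.5 and 73.4 against 318, 296 and 324 FPKM at 1 week. At 8 weeks it measured 208, 181 and 116 FPKM in MI and 294, 282 and 286 FPKM in sham libraries. The groups did not overlap at any stage, and at 1 week the highest MI library was far below the lowest sham library. The log2 changes were -1.21 ± 0.17, -2.37 ± 0.17 and -0.81 ± 0.17 (SE; adjusted p = 9.1e-06, 3.3e-09 and 0.00043 by limma). The middle-stage fall was stronger than the early one, with a difference of -1.17 on the log2 scale (adjusted p = 0.00044). From the middle to the late stage the change shifted by 1.57 (adjusted p = 0.00021).

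Mrpl12 forms, with Mrpl10, the stalk of the large subunit that receives translation factors, and in human cells it also binds the mitochondrial RNA polymerase. It measured 60.6, 63.4 and 68.9 FPKM in MI against 133, 112 and 122 FPKM in sham libraries at 1 day. At 1 week the MI libraries held 36.2, 36.7 and 43.3 FPKM and the sham libraries 134, 116 and 140.5 FPKM. At 8 weeks they held 121, 95.4 and 71.5 FPKM against 123, 121 and 131 FPKM, with the first MI library just below the lowest sham library. The log2 change was -0.91 ± 0.14 at 1 day, -1.72 ± 0.14 at 1 week and -0.41 ± 0.14 at 8 weeks (adjusted p = 3.1e-05, 1.6e-08 and 0.015), and the late call was lost without the third MI library (-0.22). Its stalk partner Mrpl10 gave 14.8, 14.6 and 14.4 FPKM in MI against 21.997, 21.1 and 20.7 FPKM in sham at 1 day (log2 change -0.51 ± 0.06, adjusted p = 1.1e-06). At 1 week it gave 19.4, 19.4 and 19.2 against 21.9, 21.7 and 24.5 FPKM (-0.22 ± 0.06, adjusted p = 0.0024). At 8 weeks Mrpl10 gave 22.5, 22.4 and 22.8 FPKM in MI and 22.01, 21.8 and 22.8 FPKM in sham, a change of 0.02 ± 0.06 that did not pass the test (adjusted p = 0.72) and that was -0.62 relative to the library median.

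**Figure D3:**
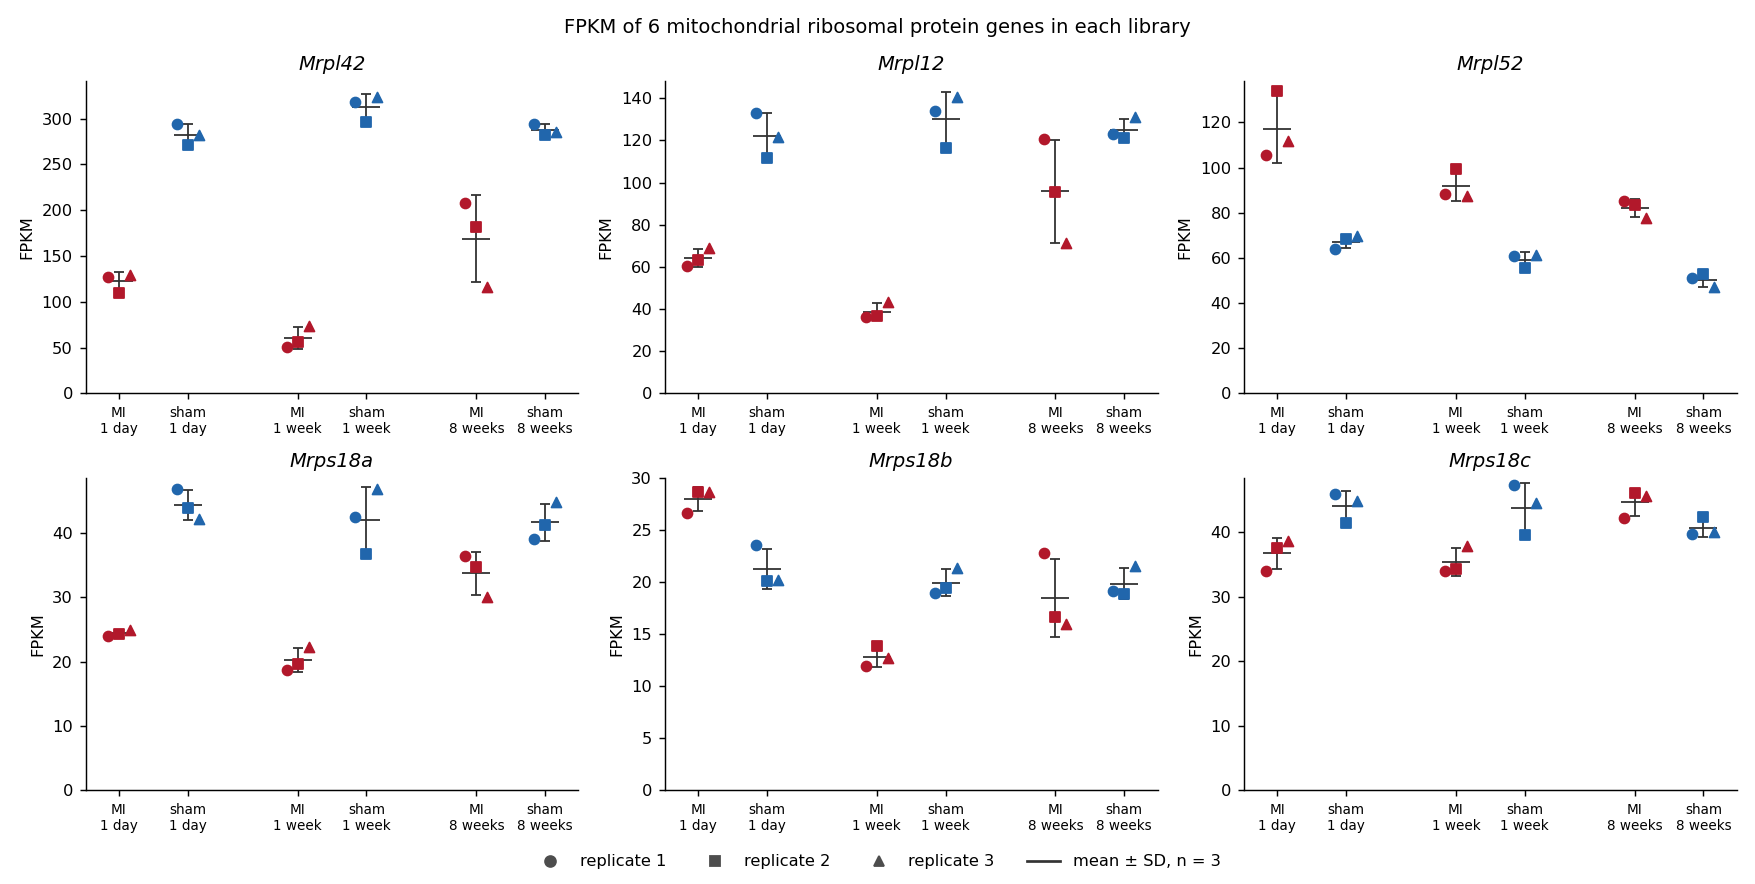
FPKM of Mrpl42, Mrpl12, Mrpl52 and the 3 Mrps18 genes in each library (points; shape gives the replicate) with the mean and SD of 3 libraries, MI in red and sham in blue. Mrpl42 and Mrpl12 are lowest in MI hearts at 1 week, Mrpl52 is higher in MI than in sham hearts in FPKM at each stage (relative to the library median its change is -0.23 at 1 week), and the Mrps18 genes have different patterns.

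The other large falls came from both subunits. Mrps35, specific to the mitochondrial small subunit, held 14.3, 12.98 and 18.2 FPKM in MI against 47.2, 43.5 and 43.4 FPKM in sham libraries at 1 day (log2 change -1.51 ± 0.14), with -1.85 ± 0.14 at 1 week and -0.79 ± 0.14 at 8 weeks (adjusted p = 1.1e-07, 6.7e-09 and 0.00011). Mrpl55, a large-subunit protein listed here with the bacterial homologues, held 9.30, 10.7 and 12.6 FPKM in MI against 40.4, 37.5 and 40.6 FPKM in sham at 1 week (-1.78 ± 0.14, adjusted p = 8.9e-09). The lowest share of the sham level at 1 day, 31.6%, was that of Mrpl55, and at 8 weeks that of Mrps35, 57.2%. At 1 week Mrps23 (-1.52), Mrpl51 (-1.51), Mrpl30 (-1.38) and Mrps31 (-1.36) were the next lowest subunit genes after Mrpl42, Mrps35, Mrpl55 and Mrpl12. At 8 weeks Mrps31 (-0.68), Mrpl45 (-0.68) and Mrpl1 (-0.66) followed Mrpl42 and Mrps35. Mrpl45 is the protein that holds the ribosome at the inner membrane next to the exit of the new chain. The number of genes whose MI mean was below 50 percent of the sham mean was 19 at 1 day, 31 at 1 week and 0 at 8 weeks.

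Some genes were lowest at the early stage in FPKM. Relative to the library median, 0 of the 76 genes shifted up from 1 day to 1 week by limma, also unadjusted, and 57 shifted down (30.8% and 31.3% of all tested genes). On that scale the shifts of Mrpl34, Mrps16 and Mrpl27 were called in neither direction. Mrpl34, the homologue of a small bacterial large-subunit protein, held 16.8, 16.2 and 21.97 FPKM in MI against 62.4, 54.1 and 55.4 FPKM in sham libraries at 1 day. At 1 week it held 24.4, 28.04 and 29.2 against 55.8, 50.2 and 61.9 FPKM, and at 8 weeks 50.97, 36.5 and 33.002 against 52.2, 47.6 and 50.8 FPKM. Its log2 change was -1.60 ± 0.14, -1.01 ± 0.14 and -0.34 ± 0.14 (adjusted p = 6.9e-08, 5.5e-06 and 0.04). At 8 weeks the groups overlapped, and leaving out any of 5 single libraries of that stage lost the call. Mrps16, homologue of bacterial S16 in the body of the small subunit, held 24.0, 28.5 and 31.9 FPKM in MI against 62.2, 59.4 and 65.9 FPKM in sham at 1 day (-1.13 ± 0.12, adjusted p = 3.4e-07). At 1 week it held 48.1, 43.0 and 43.8 against 64.3, 50.4 and 61.4 FPKM (-0.37 ± 0.12, adjusted p = 0.0071), and its change at 8 weeks, 0.05 ± 0.12, did not pass the test (adjusted p = 0.72; -0.59 relative to the library median, adjusted p = 0.0032). Mrpl27, which in bacteria reaches into the site of peptide bond formation, held 17.4, 18.05 and 19.3 FPKM in MI against 32.4, 31.3 and 29.6 FPKM in sham at 1 day (-0.74 ± 0.07, adjusted p = 1e-07). At 8 weeks Mrpl27 held 34.2, 36.0 and 37.0 against 30.7, 26.8 and 28.2 FPKM, 0.31 ± 0.07 higher (adjusted p = 0.00062) but lower relative to the library median (-0.33, adjusted p = 0.0041).

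Genes of both subunits were lower. Of the 47 Mrpl genes 42, 40 and 28 were lower at the 3 stages in time order, with median changes of -0.75, -0.86 and -0.34. Of the 29 Mrps genes 26, 27 and 11 were lower, with medians of -0.60, -0.69 and -0.13. A name is not always the place: Mrps18a and Mrps30 are proteins of the large subunit, and Mrps36 is a component of the 2-oxoglutarate dehydrogenase complex of the citric acid cycle rather than a ribosomal protein. Sorted by place and origin, with the subunit genes Mrp63 and Ict1 added, small-subunit proteins with a bacterial homologue had medians of -0.56, -0.59 and -0.09 (17 genes) and mitochondria-specific ones -0.61, -0.87 and -0.26 (9 genes). Large-subunit proteins had medians of -0.74, -0.77 and -0.34 with a bacterial homologue (31 genes) and -0.78, -0.82 and -0.29 without (20 genes). Mrps36 changed by -1.21 ± 0.12, -1.60 ± 0.12 and -0.50 ± 0.12 (adjusted p = 2.3e-07, 6.1e-09 and 0.0015), with 18.6, 19.3 and 22.3 FPKM in MI against 66.1, 58.0 and 64.5 FPKM in sham at 1 week. Mrps30 changed by -0.34 ± 0.08, -0.61 ± 0.08 and -0.37 ± 0.08 (adjusted p = 0.00099, 1.5e-06 and 0.00043).

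The 3 genes related to bacterial S18 had different patterns. Their proteins sit at different places in the mammalian ribosome, Mrps18a in the large and Mrps18b and Mrps18c in the small subunit. Mrps18a held 24.0, 24.3 and 24.9 FPKM in MI against 46.9, 43.9 and 42.2 FPKM in sham libraries at 1 day and 18.8, 19.6 and 22.3 against 42.4, 36.7 and 46.9 FPKM at 1 week. The log2 changes were -0.83 ± 0.10 and -1.01 ± 0.10 (adjusted p = 1.2e-06 and 7e-08). Mrps18b held 26.6, 28.7 and 28.6 FPKM in MI against 23.6, 20.2 and 20.2 FPKM in sham at 1 day, 0.38 ± 0.11 higher (adjusted p = 0.0061), a rise that did not pass the test relative to the library median (0.11, adjusted p = 0.58). At 1 week Mrps18b held 11.9, 13.9 and 12.7 against 19.0, 19.5 and 21.4 FPKM and was lower (-0.60 ± 0.11, adjusted p = 9.6e-05). The change of effect from 1 day to 1 week was -0.98 ± 0.16 (adjusted p = 5.2e-05), and it was -1.56 relative to the library median. Mrps18c held 34.03, 37.5 and 38.7 FPKM in MI against 45.9, 41.4 and 44.9 FPKM in sham at 1 day (-0.26 ± 0.08, adjusted p = 0.0088) and 33.97, 34.2 and 37.8 against 47.2, 39.5 and 44.5 FPKM at 1 week (-0.30 ± 0.08, adjusted p = 0.0022). At 8 weeks Mrps18a was lower (-0.30 ± 0.10, adjusted p = 0.01), a call that was lost without the third MI library (-0.22). Mrps18b (-0.11) and Mrps18c (0.13) did not pass the test in FPKM. Relative to the library median all 3 genes were called lower at 8 weeks. Mrps18b lies 71 bases from Ppp1r10, a regulatory subunit of a nuclear protein phosphatase, whose change was 1.22, 0.36 and 0.42 at the 3 stages. It lies 293 bases from Atat1, which changed by -0.2, 0.76 and 0.8. The transcripts of Mrps18b share 141 exon bases with an opposite-strand gene, and the library kit does not mark strand.

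Mrpl52, a mitochondria-specific protein of the large subunit, was the single gene of the 76 that passed the test as higher in MI FPKM at every stage, a pattern of 34.3% of all tested genes, although relative to the library median its change was negative at 1 week. It measured 106, 134 and 112 FPKM in MI against 63.8, 68.2 and 69.5 FPKM in sham libraries at 1 day. At 1 week it measured 88.4, 99.5 and 87.6 against 60.8, 55.4 and 61.5 FPKM, and at 8 weeks 85.1, 83.3 and 77.7 against 51.1, 52.8 and 46.9 FPKM. No MI library overlapped a sham library. The log2 change was 0.79 ± 0.09, 0.62 ± 0.09 and 0.70 ± 0.09 (adjusted p = 1.2e-06, 7.6e-06 and 5.9e-06). Relative to the library median it was 0.51 at 1 day (adjusted p = 0.0012), -0.23 at 1 week (adjusted p = 0.092) and 0.06 at 8 weeks (adjusted p = 0.69). Mrpl52 lies 1847 bases from Mmp14, a membrane-bound collagenase of fibroblasts and macrophages, whose change was 2.40, 5.21 and 2.18, and 6840 bases from the amino acid transporter gene Slc7a7, which changed by 1.27, 2.59 and 1.35. Whether reads of these neighbours entered the value of Mrpl52 was not tested. Its exons overlap no other gene of the annotation. Some genes that were lower also had rising neighbours. Mrps15 (-0.62 at 1 day) lies 1952 bases from Csf3r (5.26), and Mrps28 (-0.56) lies 2672 bases from Tpd52 (3.23).

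The remaining higher genes rested on the scale. Mrpl17, the lowest of the 76, held 4.58, 5.86 and 5.15 FPKM in MI against 4.20, 3.71 and 3.94 FPKM in sham at 1 day (0.32 ± 0.09, adjusted p = 0.0054; 0.04 and not called relative to the library median). At 1 week Mrpl20 (0.23) and Mrps25 (0.43) were higher in FPKM and lower relative to the library median (-0.63 and -0.42). The call of Mrpl20 was lost without the second MI or the first sham library of that stage. At 8 weeks Mrpl20, Mrpl24, Mrpl27, Mrpl33, Mrpl40, Mrpl48, Mrpl54, Mrps6, Mrps10, Mrps25 and Mrps26 were higher by 0.20 to 0.41 on the log2 scale, and all 11 had a negative change relative to the library median. Mrpl33 was the most abundant of them, with 178, 153 and 125 FPKM in MI against 114, 111 and 115 FPKM in sham at 8 weeks (0.41 ± 0.11, adjusted p = 0.0026; -0.23 relative to the library median, adjusted p = 0.22). Mrps6, homologue of bacterial S6, held 33.5, 30.02 and 34.3 against 25.3, 25.2 and 24.7 FPKM (0.36 ± 0.09, adjusted p = 0.0018; -0.28 relative, adjusted p = 0.026), after lower levels at 1 day (-0.48) and 1 week (-0.33). Of the 12 genes higher at 8 weeks, 4 share exon bases with another gene. Mrps25 shares 3547 of 6076 with Nr2c2, an orphan nuclear receptor (changes of 0.28, 1.11 and 0.37). Mrps6 shares 145 with the inositol transporter gene Slc5a3 (0.08, 1.62 and 1.57). Mrpl24 shares 355 with Rrnad1 (-0.16, 0.51 and 0.80), and Mrpl48 shares 440 with the Golgi trafficking gene Rab6a (0.66, 0.91 and 0.58). Reads of such pairs cannot be told apart, and among all 76 genes 12 share exon bases with another gene.

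Of the other genes listed for their role, some were lower at all 3 stages and others at the first 2. Mrps12, homologue of the bacterial protein that monitors decoding, held 17.5, 17.2 and 18.4 FPKM in MI against 30.2, 25.1 and 29.3 FPKM in sham at 1 day (-0.64 ± 0.09, adjusted p = 1.7e-05) and changed by -0.59 at 1 week and 0.02 at 8 weeks, where it did not pass the test (-0.62 relative to the library median). Mrps5, near the entry of the messenger, changed by -0.51, -0.59 and -0.10, the last not past the test. Mrpl3, Mrpl44 and Mrps22 are linked to mitochondrial cardiomyopathy in humans. Mrpl3 changed by -0.93, -1.07 and -0.39, Mrpl44 by -1.05, -1.15 and -0.39, and Mrps22 by -0.44, -0.87 and -0.38, all past the test at each stage. Mrpl41 changed by -1.002, -1.14 and -0.42, Mrpl18 by -1.38, -1.23 and -0.34 and Mrps14 by -0.60, -0.54 and -0.09, of which the last value of Mrps14 did not pass. Mrps7 (-0.47, -0.86 and -0.09) and Mrps34 (-0.60, -0.69 and 0.06) were lower at the first 2 stages and did not pass the test at 8 weeks, where their changes relative to the library median were -0.73 and -0.58.

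Across stages, 39 of the 76 genes were lower at all 3, a pattern of 9.01% of tested genes, and 23 were lower at 1 day and 1 week and not called at 8 weeks, a pattern of 4.77%. Mrpl40, Mrps26 and Mrps6 were lower at the first 2 stages and higher at 8 weeks in FPKM (0.77% of tested genes), although relative to the library median they were lower at 8 weeks. The MI effect itself was compared between stages. From 1 day to 1 week it shifted up for 14 genes and down for 15, 29 in all (60.0%, 11.8% and 71.8% of all tested genes). Relative to the library median it shifted up for 0 by limma, also at an unadjusted p below 0.05, and down for 57 (30.8% and 31.3%). From 1 week to 8 weeks it shifted up for 65 genes and down for 0, also unadjusted (17.1%, 29.9% and together 47.1% of all tested genes). Relative to the library median the numbers were 69 and 0 (26.3% and 26.1%). From 1 day to 8 weeks it shifted up for 57 and down for 1, Mrps18b, 58 in all (51.8%, 11.9% and 63.7%). Relative to the library median the numbers were 9 and 5 (31.3% and 27.6%). The late shift was largest for Mrpl42, Mrpl12 (1.31 ± 0.20, adjusted p = 0.00023) and Mrps23 (1.26 ± 0.21, adjusted p = 0.00034). Across the 76 genes the changes at 1 day and 1 week had Pearson's r = 0.764, those at 1 week and 8 weeks 0.872 and those at 1 day and 8 weeks 0.672, against 0.593, 0.840 and 0.482 over the other tested genes. Each stage has its own sham libraries, and genes measured in the same libraries are not independent.

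Of 16 mitochondrial translation factors 15, 14 and 11 were lower and 0, 1 and 2 were higher at the 3 stages, with medians of -0.95, -0.78 and -0.36. The elongation factor gene Tufm averaged 38.3 FPKM in MI against 88.9 FPKM in sham hearts at 1 day, 26.3 against 94.3 at 1 week and 49.9 against 90.7 at 8 weeks, with log2 changes of -1.20, -1.81 and -0.87. Lrpprc, which stabilizes mitochondrial messengers, changed by -1.15, -1.81 and -1.08. Taco1, an activator of cytochrome oxidase translation, changed by -1.72, -1.93 and -0.85, and Gfm1, the translocating elongation factor, by -1.17, -1.77 and -0.92. Mtfmt, which formylates the initiator transfer RNA, was higher in FPKM at 1 week (0.69) and 8 weeks (0.51) but had negative changes relative to the library median (-0.16 and -0.13). Of 20 genes that charge mitochondrial transfer RNA, 18, 14 and 12 were lower and 0, 2 and 2 higher (medians -0.52, -0.51 and -0.26), with Pet112 and Qrsl1 among the largest falls at 1 week (-1.55 and -1.42) and Lars2 higher there (1.10, and 0.25 without a call relative to the library median). The 5 subunit genes with other names, Dap3, Ptcd3, Chchd1, Aurkaip1 and Gadd45gip1, were lower at 1 day and 1 week (5 of 5 each), while 2 were lower and 3 not called at 8 weeks (medians -0.43, -0.85 and -0.18). Ptcd3 fell most (-0.95, -1.79 and -0.73).

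Genes of ribosome assembly were mostly lower at 1 day and 1 week. Of 25 tested, 21 were lower and 1 was higher at 1 day, 17 lower and 3 higher at 1 week, and 7 lower and 5 higher at 8 weeks, with medians of -0.61, -0.34 and -0.06. Rnmtl1, a methyltransferase of the large-subunit ribosomal RNA, fell most at 1 week (-0.65, -1.48 and -0.84), and the small-subunit methyltransferase Tfb1m fell most at 1 day (-1.18, -0.51 and -0.20, the last not past the test). Mpv17l2 was lower at 1 day (-0.46) and higher at 1 week and 8 weeks (0.88 and 0.90), where its changes relative to the library median, 0.02 and 0.26, did not pass the test. Of 10 genes for mitochondrial DNA transcription and replication 8, 7 and 4 were lower and 1, 2 and 1 higher, among the lower ones Tefm, the elongation factor of the mitochondrial RNA polymerase (-1.20, -1.23 and -0.43). Of 23 genes for protein import 16, 17 and 8 were lower and 4, 3 and 5 higher.

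**Figure D4:**
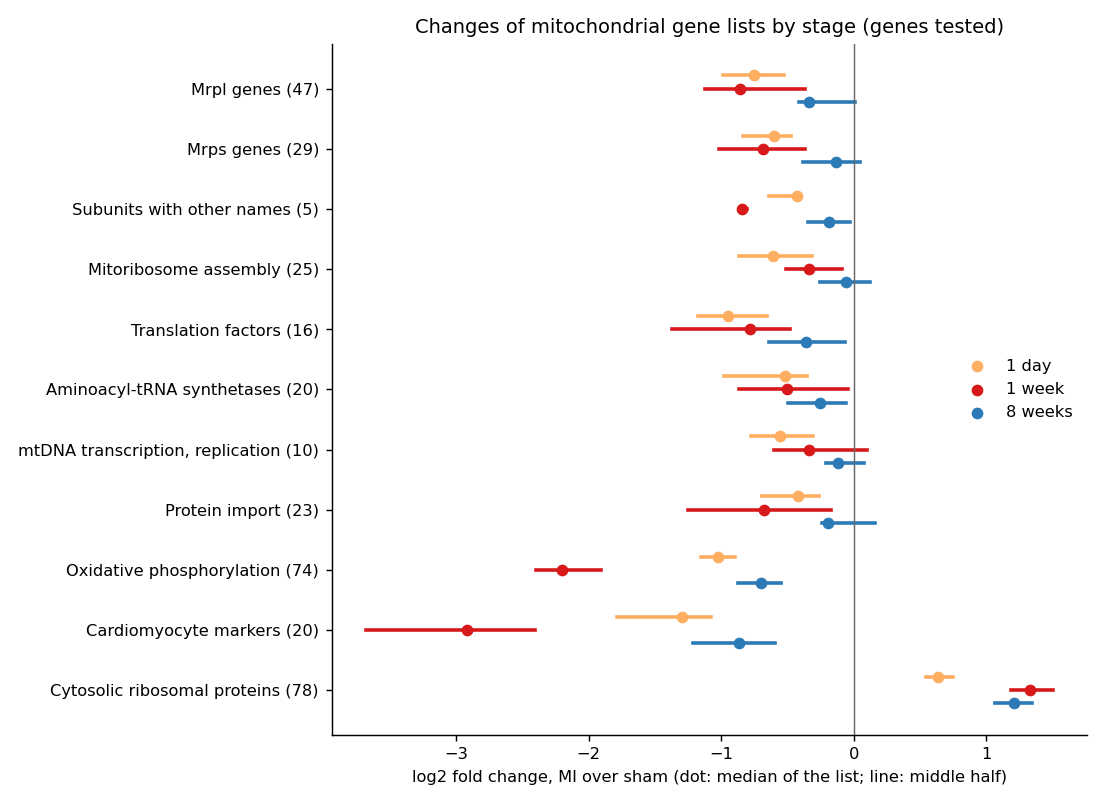
Median (dot) and middle range (lower to upper quartile) of the genes (line) of the log2 fold change, MI over sham, for lists of mitochondrial, cardiomyocyte and cytosolic ribosomal genes at the 3 stages, with the number of genes tested in parentheses. Nuclear genes of oxidative phosphorylation reach -2.20 at 1 week where the ribosomal protein genes of both subunits lie between -0.69 and -0.86, and cytosolic ribosomal proteins lie right of 0.

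Nuclear genes of oxidative phosphorylation, whose complexes contain the products of mitochondrial translation, were lower at nearly every point. All 74 were lower at 1 day and 1 week and 70 at 8 weeks, with medians of -1.02, -2.20 and -0.70. Within each library, the mean log2(FPKM + 1) of the 76 ribosomal protein genes minus that of the 74 genes was -3.753 to -3.575 in MI against -4.024 to -3.991 in sham libraries at 1 day. The difference was -2.885 to -2.393 in MI against -4.056 to -4.037 in sham at 1 week and -3.746 to -3.221 against -4.060 to -4.016 at 8 weeks, without overlap at any stage. In every MI library the means of both lists were thus closer to each other than in any sham library of its stage. The same held against the mean of the cardiomyocyte markers. That difference was -4.687 to -4.323 in MI against -5.296 to -5.187 in sham libraries at 1 day. It was -3.884 to -2.352 against -5.491 to -5.262 at 1 week and -5.149 to -4.355 against -5.486 to -5.429 at 8 weeks. Cytosolic ribosomal proteins went the other way: 76 of 78 were higher at each stage, with medians of 0.64, 1.33 and 1.21. Relative to the library median 59, 64 and 65 of the 78 were higher (medians 0.36, 0.48 and 0.57), so the direction of most held on both scales.

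Cell type markers moved with these results. The labelled tissue was left ventricle, and the 20 cardiomyocyte markers, such as Myh6 and Tnnt2, were all detected, with a summed level of 17650 to 21900 FPKM in MI against 45960 to 49390 FPKM in sham libraries at 1 day. It was 3488 to 11020 against 49740 to 55960 FPKM at 1 week, and 19250 to 45700 against 52080 to 54110 FPKM at 8 weeks. Of the 20, 18, 20 and 12 were lower. The 9 neutrophil markers summed to 6249 to 10200 FPKM in MI against 18.94 to 39.25 FPKM in sham at 1 day. At 1 week the 10 macrophage markers summed to 3623 to 4247 against 168.7 to 292.1 FPKM, and the 10 markers of activated fibroblasts to 17890 to 22650 against 304 to 411.2 FPKM. Among the late MI libraries, the third had the lowest mean log2(FPKM + 1) both of the 76 genes (4.48, against 4.78 and 4.67) and of the cardiomyocyte markers (8.83, against 9.93 and 9.48). It had the highest of neutrophil, macrophage, activated fibroblast, proliferation, adipocyte, skeletal muscle and mesothelial markers, but not of endothelial ones. At 1 week the order of the 3 MI libraries was also the same for both lists (4.09, 4.12 and 4.20 for the 76 genes, 6.44, 7.19 and 8.09 for the markers). At 1 day it was not, with 4.168, 4.169 and 4.273 for the 76 genes and 8.855, 8.492 and 8.851 for the markers. The part of cell composition in the results was not tested.

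**Figure D5:**
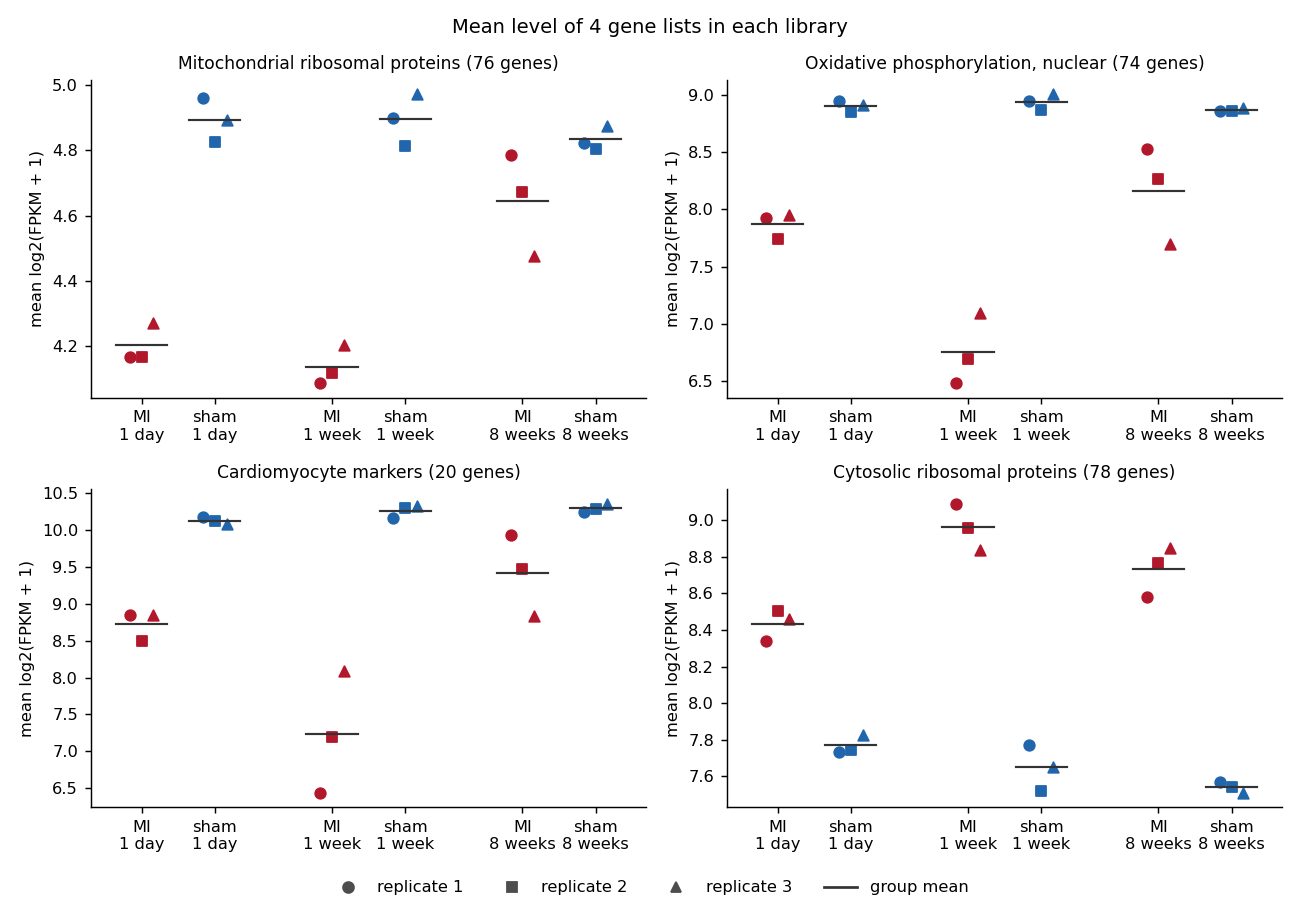
Mean log2(FPKM + 1) of the mitochondrial ribosomal protein genes, nuclear genes of oxidative phosphorylation, cardiomyocyte markers and cytosolic ribosomal proteins in each library (points; shape gives the replicate) with the group mean (line), MI in red left of sham in blue; the axes do not start at 0. At 8 weeks the third MI library is the lowest of its group in the first 3 lists and the highest in the last.

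Nuclear regulators of mitochondrial genes split. The coactivators Ppargc1a (2.01 against 12.7 FPKM in MI and sham at 1 day, 1.47 against 10.996 at 1 week, 5.54 against 17.2 at 8 weeks; log2 changes -2.20, -2.33 and -1.50) and Ppargc1b (-1.15, -1.17 and -0.51), the receptor Esrra (-1.45, -1.65 and -0.74) and the muscle regulator Perm1, listed as 2310042D19Rik (-2.69, -3.47 and -1.29), were lower at all stages. The transcription factors Nrf1 (0.92, 1.11 and 0.69), Yy1 (0.55, 1.04 and 0.60) and Myc (3.72, 2.07 and 1.47), the GABP subunit Gabpb1 (1.08, 1.11 and 0.50) and the coactivator Pprc1 (1.63, 1.44 and 0.76) were higher at all stages. Of all tested genes 34.3% were higher and 9.01% lower at all 3 stages. At 8 weeks, relative to the library median, Yy1 (-0.04) and Gabpb1 (-0.14) were negative, and only 1 of the 10 regulators was called higher. Gabpa, the DNA-binding subunit of GABP, changed by -0.19 at 1 day and 0.05 at 8 weeks, neither past the test, and was higher at 1 week (0.37), but relative to the library median it was lower at each stage (-0.46, -0.48 and -0.59). On the scale relative to the library median 5, 5 and 1 of the 10 genes were higher and 5, 5 and 6 were lower.

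NRF1, GABP, YY1 and Sp1 are known to bind promoters of many nuclear genes for mitochondrial proteins. Promoters, from 250 bases before to 50 bases after the start, were available from RefSeq (GRCm38.p6) for 67 of the 76 genes and searched on both strands for the letters of each motif. The 7 letters CCGGAAG, the core of ETS factors such as GABP, were in 24 promoters (35.8%, against 9.9% of all genes in the RefSeq table and 19.6% of tested genes). The NRF1 letters, GCGCA and GCGC with any 1 base between them, were in 12 (17.9%, against 5.2% of all and 1129 of 10240 tested genes). The YY1 letters, AAGATGG followed at once by CGGC, were in 5 (7.5%, against 0.8% and 1.8%), and GGGCGG (Sp1) was in 33 (49.3%, against 38.2% and 68.0%). Overlaps between matches of different motifs were not counted. The 12 genes with NRF1 letters had median changes of -0.86, -1.06 and -0.38, and the 55 without -0.65, -0.70 and -0.19. The 24 genes with ETS letters had medians of -0.71, -0.64 and -0.12, and the 43 without -0.65, -0.81 and -0.33. A match is a description of letters and not of binding. The 100 bases up to the start are shown for Mrpl12, the stalk gene, and for Mrpl34 and Mrpl42, the largest log2 falls at 1 day and at 1 week. They are also shown for Mrpl52, whose FPKM was higher at each stage while its change relative to the library median was -0.23 at 1 week. Capitals mark motif letters. They are NRF1 letters as the reverse complement in Mrpl12 (chr11:120484537-120484636, plus strand), ETS letters in Mrpl34 (chr8:71464826-71464925, plus strand), Sp1 letters as the reverse complement in Mrpl42 (chr10:95501950-95502049, minus strand) and ETS letters as the reverse complement in Mrpl52 (chr14:54426809-54426908, plus strand).
Mrpl12: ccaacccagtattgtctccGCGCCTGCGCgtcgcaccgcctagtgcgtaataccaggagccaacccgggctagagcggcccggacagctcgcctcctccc
Mrpl34: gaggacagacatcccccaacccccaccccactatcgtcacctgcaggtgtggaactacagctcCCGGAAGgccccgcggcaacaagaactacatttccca
Mrpl42: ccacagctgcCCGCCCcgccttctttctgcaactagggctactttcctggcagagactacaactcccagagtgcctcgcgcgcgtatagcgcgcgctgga
Mrpl52: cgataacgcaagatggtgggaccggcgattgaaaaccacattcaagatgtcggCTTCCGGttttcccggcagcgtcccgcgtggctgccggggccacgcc
Mrpl34 and Mrpl52 both carried ETS letters in this stretch, 37 and 47 bases before the start, and moved in opposite directions at 1 day (-1.60 and 0.79).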

How the data were processed

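RNA sequencing of 18 left ventricle libraries was analysed, 3 for each of MI and sham at each of the 3 stages; 18 small RNA libraries were not used. The submitters' processing notes name mm10, TopHat2 2.0.13, Bowtie2 2.2.3 and Cufflinks 2.2.1 without their settings, and FPKM were deposited by the authors for each gene and library. The authors also deposited normalized log2 values, used here only as an alternative, and columns of their own comparisons, fold changes and p-values, which were not used. FPKM carry no counts, so the depth behind a value is unknown. Genes encoded in mitochondrial DNA were not analysed here.

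The 76 genes were those whose symbol was Mrpl or Mrps, a number and at most 1 letter. Log2(FPKM + 1) of genes with an FPKM of at least 1 in 3 or more of the 18 libraries (12858 of 16415) entered limma 3.58.1 (R 4.3.3, variance trend on intensity) with all 6 groups in 1 model, 12 residual degrees of freedom and p-values adjusted over all tested genes (Benjamini-Hochberg, threshold 0.05). The same model was fitted after subtracting each library's median over tested genes. Data were simulated for 1 day with 50, 100 and 50 of 12858 genes changed by 0.5, 1 and 2 on the log2 scale. The fit found 46%, 87% and 98% of these, with 6 false calls. Far more genes were called in the real data, so these rates may not apply to them. No 2 libraries held the same values. Alternatives were another pseudocount, no filter, a stricter filter, quantile normalization, median-ratio factors, the authors' log2 values, each stage alone, no intensity trend, a replicate block and leaving out each library.

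Genes named were the 5 largest called rises and falls per stage, the 3 largest differences of the MI effect per pair of stages, the 5 highest and 3 lowest sham levels, genes of a listed role and, for other lists, up to 4 with the largest change and each nuclear regulator; Mrps18b, Mrpl52 and genes with overlapping neighbours were also described for their pattern, after values were seen. The members and lists were chosen with earlier results of these data known. Exon overlaps and promoters came from RefSeq annotation and sequences of GRCm38.p6. Scripts used Python 3.11.15, pandas 2.3.3, numpy 2.4.6, scipy 1.17.1 and matplotlib 3.10.9.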

Additional observations from a re-analysis of the deposited data

Results flagged for a closer look

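The MI effect differed between stages, by the difference of the effects in the limma model, for 29 of the 76 genes between 1 day and 1 week, 65 between 1 week and 8 weeks and 58 between 1 day and 8 weeks, where it differed for 71.8%, 47.1% and 63.7% of all tested genes. Relative to the library median the numbers were 57, 69 and 14. On that scale 30.8% of all tested genes shifted up and 31.3% down between 1 day and 1 week. The shares were 26.3% and 26.1% between 1 week and 8 weeks, and 31.3% and 27.6% between 1 day and 8 weeks. From 1 day to 1 week the change shifted by -1.17 for Mrpl42, -0.98 for Mrps18b and 0.82 for Mrpl27. The shift of Mrpl27 was 0.25 relative to the library median and did not pass the test there (adjusted p = 0.1).

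From 1 week to 8 weeks the change shifted by 1.57 for Mrpl42, 1.31 for Mrpl12 and 1.26 for Mrps23. It also shifted by 0.69 for Mrps6, 0.54 for Mrpl54 and 0.51 for both Mrpl40 and Mrps26, whose calls were lower at 1 week and higher at 8 weeks. From 1 day to 8 weeks the change shifted by 1.26 for Mrpl34, 1.18 for Mrps16, 1.05 for Mrpl27, 0.85 for Mrps6, 0.84 for Mrpl40, 0.83 for Mrps26, 0.79 for Mrpl24 and 0.70 for Mrpl48. The library medians shifted between stages as well, and their part in these values was not tested beyond the fit relative to the median.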

How the results depend on the processing

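Of 3072 alternative values for 114 results on named genes, 24 lost and 36 gained the call. Another 51 were counted as reversed in sign and 2961 as the same. The 2961 include small values that changed sign. Mrpl20 at 1 day, for example, changed by 0.05 in FPKM and by -0.15 under an alternative, with no call in any. The deposited values hold no depth, so counting error could not be separated from replicate spread. The choice of scale mattered most. In the order quantile normalization, median-ratio factors and the authors' log2 values, the early median change was -0.88, -0.80 and -0.91, the middle one -1.46, -1.66 and -1.50 and the late one -0.74, -0.94 and -0.76. Lower genes at 8 weeks numbered 67, 73 and 67. Higher genes numbered 1 at 1 day under the first and the last of these scalings, 0 at 1 week under each of the 3 (limma, also 0 on the scale of the median at an unadjusted p below 0.05), and 1, 0 and 1 in the late stage. The MI effect differed for 53, 70 and 53 genes between 1 day and 1 week and for 18, 13 and 18 between 1 day and 8 weeks. Shares of all tested genes under the alternatives of this section are not given. Its counts therefore show only how the calls of the 76 genes depend on the processing. With a pseudocount of 0.1 the medians were -0.73 at 1 day and -0.82 at 1 week.

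Under the same 3 scalings these changes were negative instead of positive. At 1 week they were -0.72, -0.62 and -0.72 for Mrpl17, -0.35, -0.72 and -0.36 for Mrpl20, -0.51, -0.85 and -0.52 for Mrpl27, -0.72, -0.83 and -0.75 for Mrps10 and -0.43, -0.41 and -0.44 for Mrps25. At 8 weeks they were -0.46, -0.66 and -0.48 for Mrpl10, -0.53, -0.41 and -0.54 for Mrpl17, -0.15, -0.42 and -0.16 for Mrpl20, -0.15, -0.38 and -0.15 for Mrpl27, -0.16, -0.28 and -0.17 for Mrps10, -0.47, -0.66 and -0.48 for Mrps12, -0.38, -0.66 and -0.39 for Mrps16, -0.30, -0.57 and -0.30 for Mrps18c, -0.22, -0.21 and -0.22 for Mrps25, -0.40, -0.63 and -0.41 for Mrps34 and -0.11, -0.33 and -0.11 for Mrps6. With median-ratio factors alone Mrpl52 (-0.33 at 1 week, -0.0078 at 8 weeks) and Mrpl33 (-0.30 at 8 weeks) were negative. The cause was not tested.

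Leaving out single libraries gave 31 to 48 lower and 9 to 12 higher genes at 8 weeks. The early median ran from -0.72 to -0.64, the middle one from -0.78 to -0.70 and the late one from -0.36 to -0.16. The effect differed for 23 to 33, 55 to 67 and 51 to 65 genes in the 3 pairs of stages. Without the third MI library of 8 weeks Mrpl12, Mrpl18, Mrpl30, Mrpl34 and Mrps18a lost their late call. Without the second MI or the first sham library of 1 week Mrpl20 lost its call. Same-numbered MI and sham libraries had correlated deviations of 0.166, 0.006 and 0.052 for the early, 0.29, -0.092 and 0.077 for the middle and 0.031, 0.039 and 0.051 for the late stage, so the numbers were not taken to pair libraries. With a replicate block 67, 66 and 39 genes were lower and 3, 3 and 12 higher. Over all alternatives other than left-out libraries, 30 to 73 genes were lower at 8 weeks. Relative to the library median 62 to 73 were lower there.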

Other observations

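Markers of other cell types outside the comparisons above moved among the late MI libraries. The 6 adipocyte markers summed to 2.622 to 1895 FPKM in MI against 0.5859 to 1.276 FPKM in sham libraries at 8 weeks, and the 6 mesothelial markers to 13.32 to 200.4 FPKM against 0.924 to 1.354 FPKM. The 8 skeletal muscle markers summed to 288.6 to 654 FPKM in MI against 103.5 to 243.8 FPKM in sham libraries. Only 4 of these 8 passed the filter on low values. The 8 endothelial markers overlapped, with 200.9 to 334 FPKM in MI and 240.3 to 246.1 FPKM in sham libraries. Across the 76 genes, the change after MI and the mean sham level had Pearson's r of -0.318 at 1 day, -0.423 at 1 week and -0.107 at 8 weeks. Over the other tested genes r was -0.297, -0.422 and -0.319. Sham libraries entered both the change and the level, so these are not independent.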
